A study of Drosophila melanogaster with 18 samples.

Results

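Midday and midnight were compared in the heads of *Drosophila melanogaster* with 3 libraries collected at ZT7 and 3 at ZT19, that is 7 h and 19 h after lights on in a cycle of 12 h of light and 12 h of darkness. These 6 libraries were chosen by their time label, out of 18 libraries in the series, and each ZT7 library was paired with the ZT19 library of the same temperature (18°C, 25°C or 29°C). All flies were wild-type Canton-S and had been kept at their temperature for at least 3 days before RNA was extracted from whole heads. Each combination of time and temperature was a single library, so the 3 temperatures served as the replicates of a time point and no temperature had a replicate of its own. Polyadenylated RNA was sequenced from its 3′ end, an assay that reads the end of each transcript and so measures how much of it there is and where it ends. The titles place the midnight libraries at 18 h and the other labels at 19 h, which leaves the groups the same.

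The fly clock is a transcriptional loop. The CLOCK and CYCLE proteins activate *per* and *tim*, whose proteins accumulate after dusk, return to the nucleus and shut off their own transcription, and a second loop through *vri* and *Pdp1* sets the rhythm of *Clk*. Because TIM is destroyed in light and many output genes follow the loop with a fixed delay, RNAs of fly heads are commonly grouped into those that are abundant by day and those that are abundant by night, and the phases of the clock RNAs are known to shift with temperature.

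Values are given as signal, which is the number of reads assigned to a transcript divided by 1 constant per library. The 6 libraries held an estimated 2.30 to 4.19 M reads (1.25 to 6.62 M over all 18), and the value of 3 reads, taken as the limit of detection, lay between 2.22 and 4.29. The libraries were heads by their markers: the 5 photoreceptor markers (*ninaE*, *trp*, *norpA*, *inaC*, *chp*) summed to 22989 to 41338 at ZT7 and 23621 to 50665 at ZT19, and the 6 glia markers to 2550 to 3966 and 2736 to 4008. The 5 neuron markers summed to 463 to 592 and 486 to 702, and the 7 fat body markers to 105993 to 771293 and 138333 to 713219. Ovary and testis markers were scarce, no row of either list was abundant enough to test, and *Cp36*, *aly* and *bam* were at 0 in all 6 libraries. The ovary markers summed to 48.4 in the 29°C library of ZT7 and to 0 to 2.78 in the rest of the 6. The testis markers summed to 48.1 in the 29°C library of ZT19 and to 0 in the rest. The part of gonad RNA in these 2 libraries was not tested. In whole heads, fewer cells of a type and less RNA per cell cannot be told apart.

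A transcript row was tested where its value reached 10 in at least 6 of the 18 libraries, which left 8859 rows of 8216 genes. The difference between ZT7 and ZT19 was estimated with limma on log2(signal + 1) over all 18 libraries, with time and temperature as terms. Of the 8859 rows, 1 (0.0113%) passed an adjusted p of 0.05, and its transcript was less abundant at midday. At an unadjusted p under 0.05 there were 276 rows higher at ZT7 (3.12% of all tested) and 221 lower (2.49%), 497 together. The median log2 difference over all rows was 0.009. The signal of the 3 ZT7 libraries was above that of all 3 ZT19 libraries in 331 rows (3.74%) and below it in 351 (3.96%).

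The transcript that passed was that of *CG34134*, a short gene on chromosome arm 2L (dm3, 8190297 to 8190781, minus strand). Its signal, in order of temperature from the coldest, was 162, 83.9 and 179 at ZT7 and 317, 638 and 939 at ZT19. Every ZT19 library lay above every ZT7 library, by 1.96-fold at 18°C, 7.61-fold at 25°C and 5.24-fold at 29°C within a temperature. The mean difference of the 3 pairs was -2.09 ± 0.36 on the log2 scale (SE of the 18-library fit; limma, adjusted p = 0.0466), which corresponds to a level 4.25-fold higher at midnight. Here and below, ± gives the standard error of the fit. Its spread is estimated over all libraries of the fit and rows of like abundance, not from the 3 pairs alone. In the 12 libraries that this comparison did not use, the mean of ZT3 and ZT11 minus the mean of ZT15 and ZT23 was -1.08 ± 0.25 (limma, unadjusted p = 0.000456, adjusted p = 0.24). It was not low throughout the day, since ZT3 (579, 334 and 288) was above ZT15 (119, 221 and 245) at every temperature. The values were 112, 59.0 and 132 at ZT11 and 451, 1145 and 1313 at ZT23. The highest mean of the 6 times was at ZT23 and the lowest at ZT11, while at 18°C the highest value was that of ZT3. The adjusted p was close to the threshold and rested on the warm libraries. Leaving out the ZT7 library of 25°C or 29°C gave an adjusted p of 0.622 or 0.149, and leaving out the ZT19 library of 25°C or 29°C gave 0.649 or 0.225, with differences of -1.76 to -2.12. The direction was the same under all 23 alternatives, of which 12 passed the threshold (limma, adjusted p = 2.27e-36 to 1). The lowest of these came from a fit of only the 25°C and 29°C libraries of ZT7 and ZT19. That fit has few residual degrees of freedom, so its value is not stronger evidence for this gene.

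**Figure D1:**
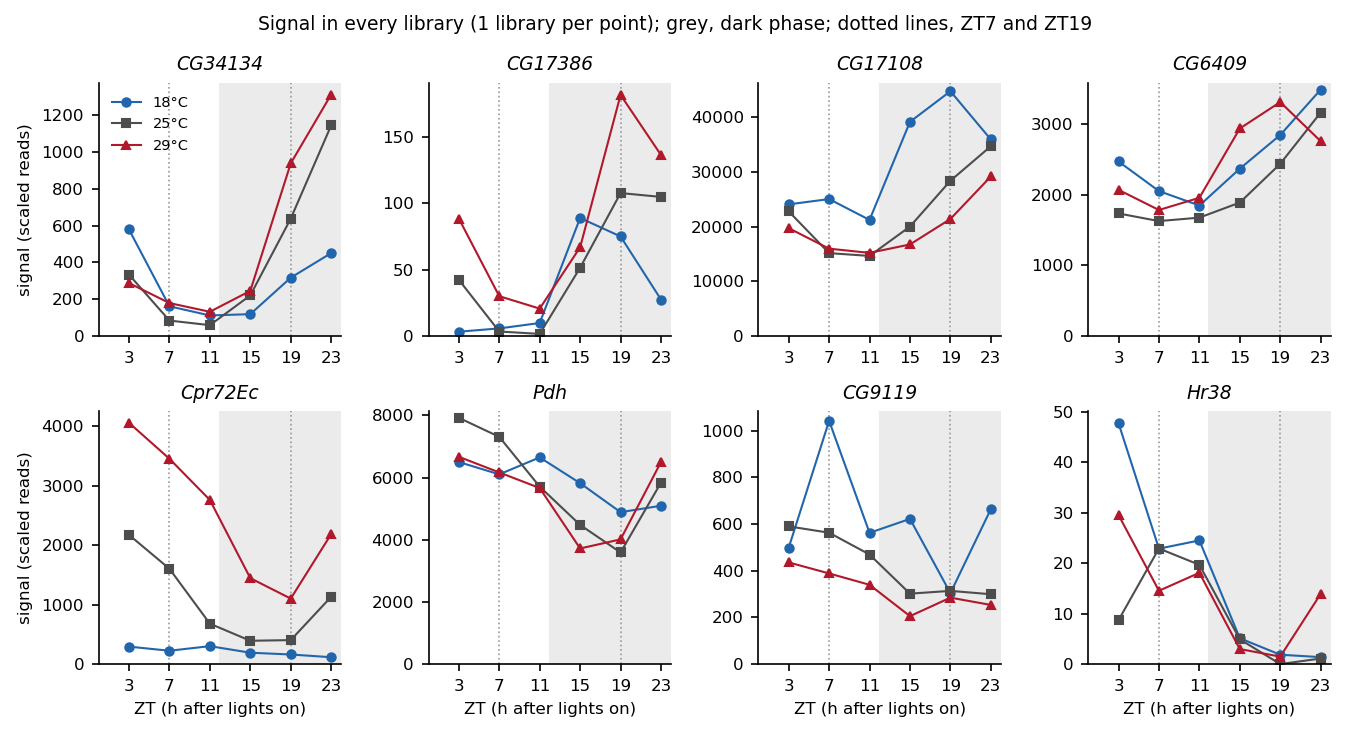
Signal of 8 transcripts (vertical axes, scaled reads) against time of day (horizontal axes, h after lights on) in all 18 libraries, 1 point per library, with 1 line per temperature; the grey area is the dark phase and the dotted lines mark ZT7 and ZT19. *CG34134* and *CG17386* were lower at ZT7 than at ZT19 at each of the 3 temperatures, and *Hr38* had the opposite order.

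With the 6 libraries alone, paired by temperature, the same test called 30 rows, 19 higher at ZT7 (0.214% of tested rows) and 11 lower (0.124%), and without the pairing it called none of 8859 (223 at an unadjusted p under 0.05). This fit has 2 residual degrees of freedom and takes the spread of a row mostly from rows of like abundance (prior degrees of freedom 56.4, against 14.7 over 18 libraries). All 30 had an unadjusted p under 0.05 over the 18 libraries, and 28 lay in 1 direction at all 3 temperatures (19 higher and 9 lower at ZT7), as did 26.5% of all tested rows (1246 higher and 1098 lower). Neither count is separate support. The 6 libraries are among the 18 and give the same differences, and a paired test favours rows whose 3 pairs agree. The genes below were picked from these 30 after their values were seen. In the 12 other libraries the light phase differed from the dark phase in the same direction for 23 of the 30 (51.6% of all rows do), with an unadjusted p under 0.05 for 11 of them (5.08% of all rows). The direction was the opposite one, with an unadjusted p under 0.05, for 3 (*CG17333*, *Act79B* and *Scp1*; 3.66% of all rows). Leaving out both libraries of 18°C, 25°C or 29°C kept 16, 8 and 21 of the 30 calls, and 3 were called under each of these settings: *CG34134*, *CG17386* and *Cpr72Ec*.

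**Figure D2:**
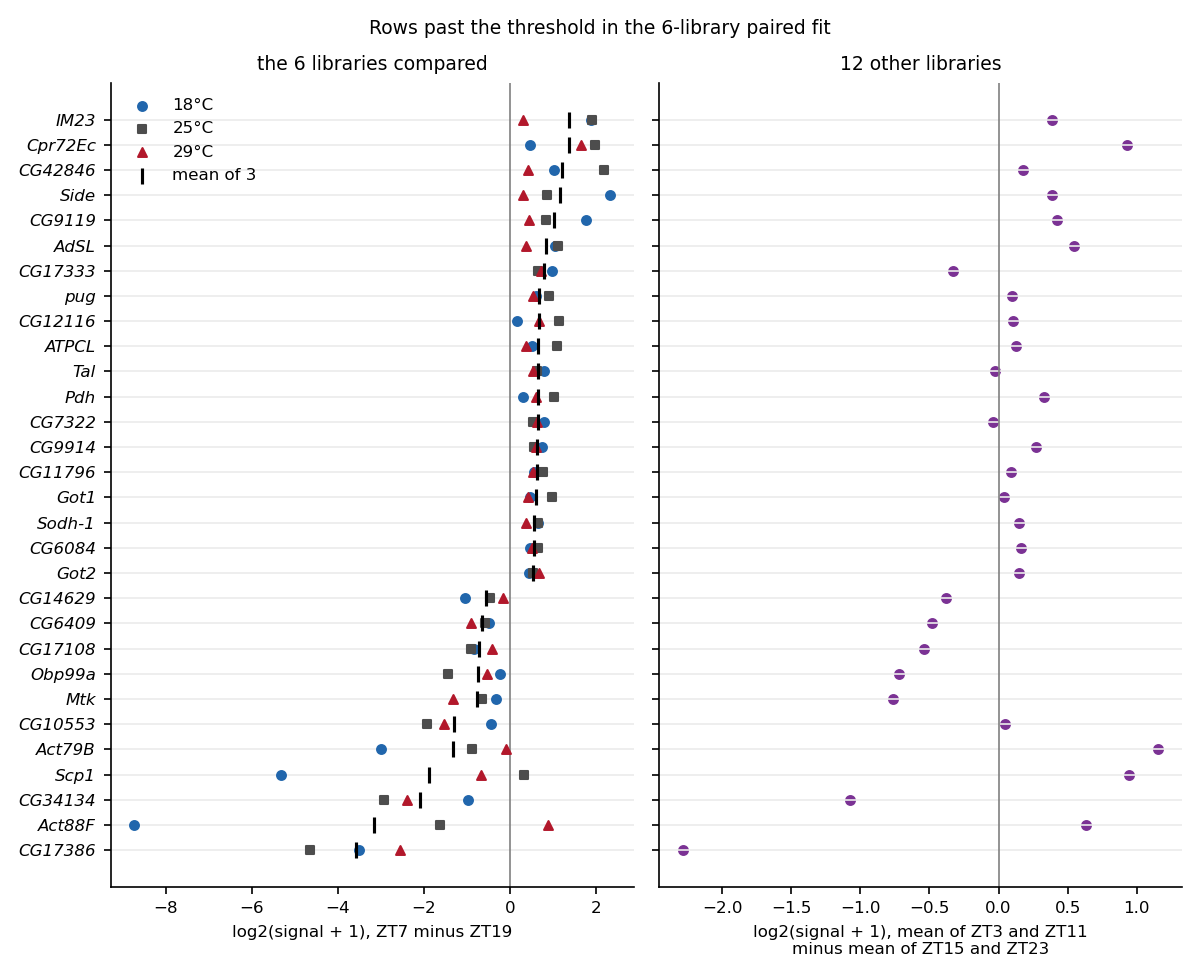
The 30 rows past the threshold in the 6-library paired fit (vertical axis). On the left the log2 difference ZT7 minus ZT19 is shown for each temperature with the mean of 3 as a black bar, and on the right the log2 difference between light phase and dark phase in the 12 other libraries. For *Act88F*, *Act79B* and *Scp1* the 18°C point lies far to the left of those of the other temperatures, and *CG34134* and *CG17386* are negative on both sides.

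Among the 11 transcripts that were lower at midday in the paired fit, the largest difference was that of *CG17386*, now named *Achl* (achilles), a gene described as a rhythmic neuronal output of the clock. It is on chromosome arm 2R (dm3, 10307829 to 10312099). Its signal was 5.72, 3.39 and 30.0 at ZT7 and 75.1, 108 and 182 at ZT19 in order of temperature. The midday values at 18°C and 25°C were just above the limits of detection of these libraries (4.29 and 2.54). The groups did not overlap and the mean difference of the 3 pairs was -3.56 ± 0.69 (SE of the 18-library fit), although over the 18 libraries it missed the threshold (limma, adjusted p = 0.109, and 9.64e-08 in the 6-library paired fit). In the other 12 libraries the light phase was lower as well (-2.29 ± 0.53 on the log2 scale). It was the most abundant at ZT19 among the 6 times.

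*CG17108* and *CG6409* are abundant head transcripts with smaller differences. *CG17108* read 25044, 15157 and 15971 at ZT7 and 44762, 28390 and 21398 at ZT19. At each temperature the midnight library was the higher one, by 1.79-fold, 1.87-fold and 1.34-fold, but the groups overlapped because the level at midday in the cold was above that at midnight at 29°C. *CG6409* read 2052, 1627 and 1784 against 2846, 2438 and 3312, with no overlap and a difference of -0.65 ± 0.13. Both were lower in the light phase of the 12 other libraries (-0.54 ± 0.11 and -0.48 ± 0.10), and both had their highest mean at ZT23.

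*CG14629* (-0.55 ± 0.14) and *Obp99a* (-0.73 ± 0.28), which encodes an odorant-binding protein, were lower at ZT7 at all 3 temperatures too. The antimicrobial peptide gene *Mtk* (Metchnikowin) read 452, 475 and 747 at ZT7 and 561, 747 and 1863 at ZT19, a difference of -0.76 ± 0.37 that was widest at 29°C. Its light phase was lower in the other 12 libraries too (-0.76 ± 0.22). Another immune-induced peptide gene, *IM23* (now *BomBc1*), had the reverse pattern, with 240, 147 and 61.0 at ZT7 and 64.0, 38.7 and 48.8 at ZT19 and a difference of 1.37 ± 0.44. Of the 16 tested rows of antimicrobial peptide genes, these were the 2 at an unadjusted p under 0.05, and the median over the list was -0.03. At that p, 3.12% of all tested rows were higher and 2.49% lower.

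*CG10553* read 160, 32.2 and 17.4 at ZT7 and 215, 126 and 52.5 at ZT19, a difference of -1.30 ± 0.36, while its light phase in the other 12 libraries differed by 0.04 ± 0.26.

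The other 3 calls below zero rested on 1 library. *Act88F*, the actin of the indirect flight muscle, read 2235 in the 18°C library of ZT19 and between 0 and 39.8 in the other 17. *Act79B*, another muscle actin, read 1595 there and 72.1 to 823 elsewhere, and *Scp1*, a sarcoplasmic calcium-binding protein, read 2090 there and 32.0 to 366 elsewhere. *Mhc* and *Mlc2*, which encode the myosin heavy chain and a myosin light chain of muscle, were at 5328 and 16442 in the same library, with ranges of 3212 to 6146 and 6004 to 15795 in the other 17. *Mlc2* was thus the highest of the 18 libraries there, by a narrow margin, and *Mhc* was within the range. The sum over the 5 muscle markers (*Mhc*, *Act88F*, *up*, *wupA*, *Mlc2*) was 12193 to 24731 at ZT7 and 11180 to 27110 at ZT19. Without both libraries of 18°C the differences were -0.36 for *Act88F*, -0.49 for *Act79B* and -0.16 for *Scp1*, and none was called in the paired fit (limma, adjusted p = 0.981, 0.462 and 0.947). Flight muscle lies in the thorax. The part of tissue from outside the head in this library was not tested.

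**Figure D3:**
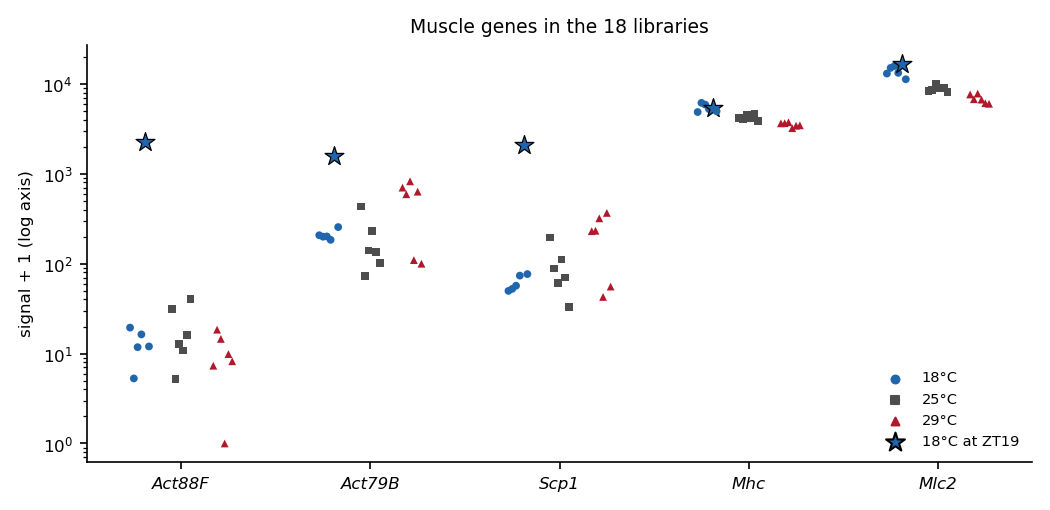
Signal + 1 of 5 muscle genes (vertical axis, log scale) in the 18 libraries, 6 points per temperature; the star is the 18°C library of ZT19. The star is above all other libraries for *Act88F* (2235), *Act79B* (1595) and *Scp1* (2090), just above them for *Mlc2*, and within their range for *Mhc*.

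Among the transcripts higher at midday in the paired fit, *Cpr72Ec* and *IM23* had the largest differences. *Cpr72Ec* is a chitin-binding cuticle protein gene on chromosome arm 3L (dm3, 16358994 to 16360440). Its signal was 224, 1604 and 3455 at ZT7 and 161, 403 and 1102 at ZT19. It also differed widely between temperatures, so that the groups overlapped, but within each temperature the midday library was higher, by 1.39-fold, 3.98-fold and 3.14-fold. The mean difference was 1.37 ± 0.29 (limma, adjusted p = 0.134 over 18 libraries and 9.64e-08 over 6), and the light phase of the 12 other libraries was higher by 0.93 ± 0.21. Among the 25 tested rows of cuticle genes of this family (Cpr), 6 were higher at an unadjusted p under 0.05 and none lower, 9 were higher and 3 lower at all 3 temperatures, and the median difference was 0.38, against 0.009 over all rows. Over all 8859 rows, 3.12% were higher and 2.49% lower at that p, and 1246 were higher and 1098 lower at all 3 temperatures. Apart from *Cpr72Ec*, the Cpr rows at an unadjusted p under 0.05 were *Cpr11B*, *Cpr47Ef*, *Cpr49Ae*, *Cpr49Af* and *Cpr49Ag*, with differences of 0.42 to 1.84. *Cpr49Af* was lower at ZT7 at 18°C (15.7 against 19.5) and under the limit of detection at midnight in the warm libraries (0 at 25°C and 1.48 at 29°C).

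*Pdh* encodes photoreceptor dehydrogenase, an enzyme of retinoid handling in the eye. It read 6102, 7309 and 6164 at ZT7 and 4886, 3590 and 4011 at ZT19. The groups did not overlap, the difference was 0.66 ± 0.14 (limma, adjusted p = 0.163 over 18 libraries and 0.00237 over 6), and the light phase elsewhere was higher by 0.33 ± 0.10. In the phototransduction list, 38 rows were tested, of which 1 was higher and 3 lower at an unadjusted p under 0.05, with a median of 0.003. The shares over all rows were 3.12% higher and 2.49% lower. The 3 lower rows were of 2 genes, *Rh4* and *rdgB*. The rows of *rdgB*, which encodes a phosphatidylinositol transfer protein of photoreceptors, were nearly alike and scarce. One read 0, 6.78 and 1.94 at ZT7 and 20.4, 11.1 and 22.9 at ZT19, and their differences were -2.69 and -2.49 on the log2 scale. In both rows the midday values at 18°C and 29°C were under the limit of detection. The size of these differences therefore depends on the 1 added to the signal. The channel gene *trpl* read 797, 2027 and 2255 at ZT7 and 908, 1173 and 1398 at ZT19, so that it was higher at midday in the warm libraries and slightly lower at 18°C. *Rh4*, an ultraviolet opsin of the inner photoreceptors, read 1366, 1361 and 1206 against 1723, 1524 and 1473, with no overlap, and a difference of -0.26 ± 0.11 (limma, adjusted p = 0.862).

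*CG9119* and *Side* also separated the groups. *CG9119* read 1042, 563 and 388 at ZT7 and 304, 314 and 285 at ZT19, so that midnight was nearly the same at the 3 temperatures while midday was 3.43-fold above midnight at 18°C, 1.79-fold at 25°C and 1.36-fold at 29°C. *Side*, which in this table is the gene now called *Sidpn* on chromosome arm 2L and encodes a bHLH factor, read 153, 144 and 142 at ZT7 and 29.7, 78.7 and 115 at ZT19. Here midday was even and midnight was the lower the colder the flies. *AdSL*, which encodes adenylosuccinate lyase of purine synthesis, read 340, 274 and 181 against 162, 126 and 139, with no overlap, a difference of 0.85 ± 0.25, and a light phase that was higher by 0.54 ± 0.19 in the other libraries.

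*Hr38*, a nuclear receptor gene that is switched on by neuronal activity, was the member of the list of activity- and light-induced factors with the largest difference. It read 22.9, 22.9 and 14.5 at ZT7 and 1.85, 0 and 1.48 at ZT19. All 3 midnight values were at or under the limit of detection, so that the mean midday level (20.1) was at least 6.59-fold higher than that limit (3.05, mean of the 3 libraries). The fitted difference missed the threshold (limma, unadjusted p = 0.000226, adjusted p = 0.223). The light phase of the 12 other libraries was higher by 2.29 ± 0.57. Of the 7 tested rows of this list no other had an unadjusted p under 0.05, and the median was 0.02. At that p, 3.12% of all tested rows were higher and 2.49% lower.

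Several enzymes of sugar metabolism were higher at midday by small margins. Of the 12 tested glycolysis rows, 6 had an unadjusted p under 0.05, all higher at ZT7, 6 were higher and 1 lower at all 3 temperatures, and the median difference was 0.26. Over all 8859 rows, 3.12% were higher at that p, and 1246 were higher and 1098 lower at all 3 temperatures. None passed the adjusted threshold. *Pgi*, which encodes glucose-6-phosphate isomerase, read 3391, 2862 and 2970 at ZT7 and 2935, 2007 and 2199 at ZT19, a difference of 0.38 ± 0.12. Each temperature pair had the midday library higher, but the groups overlapped because of the high level at 18°C at midnight. *Pfk* (phosphofructokinase), *Tpi* (triose phosphate isomerase), *Pgk* (phosphoglycerate kinase), *PyK* (pyruvate kinase) and *Gapdh2* had differences of 0.27 to 0.36, each with a standard error of 0.11 to 0.14. *ImpL3*, the lactate dehydrogenase gene, was the row lower at all 3 temperatures (-0.43 ± 0.47). In the 12 other libraries the median of the list was 0.11, against -0.02 over all rows. For the 6 rows at an unadjusted p under 0.05, the light phase there was higher by only 0.03 to 0.14. *GlyP*, which releases glucose from glycogen, read 2924, 1532 and 1237 at ZT7 and 2098, 1180 and 903 at ZT19 (0.44 ± 0.15).

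The pentose phosphate pathway branches off glycolysis and provides NADPH and ribose. Its first step is catalysed by the product of *Zw*, glucose-6-phosphate dehydrogenase, which read 357, 219 and 177 at ZT7 and 213, 146 and 117 at ZT19 (0.64 ± 0.18). The next enzyme, 6-phosphogluconolactonase, is encoded by *CG17333* (now *Pgls*), which read 473, 273 and 211 against 238, 174 and 126 (0.79 ± 0.17; limma, adjusted p = 0.134 over 18 libraries and 0.0315 over 6). At each temperature midday was 1.57-fold to 1.99-fold above midnight. *Pgd*, the 6-phosphogluconate dehydrogenase gene, read 777, 391 and 477 against 456, 363 and 271 (0.56 ± 0.20), with little difference at 25°C. *Tal* (transaldolase, now *Taldo*) read 3977, 2133 and 2006 against 2299, 1369 and 1373, a difference of 0.66 ± 0.16 that was called in the paired fit (limma, adjusted p = 0.00237). The other 3 enzymes of the pathway had smaller differences: 0.33 ± 0.19 for *Rpi*, 0.43 ± 0.29 for *CG30499* (ribulose-phosphate epimerase) and 0.22 ± 0.17 for *CG8036* (transketolase). These 7 genes were put side by side after their values were seen. In the 12 other libraries the light phase was higher for *Zw* (0.30 ± 0.13) and lower for *CG17333* (-0.33 ± 0.12), and within 1 standard error of 0 for *Tal* (-0.03 ± 0.13). *CG17333* and *Tal* had their highest mean of the 6 times at ZT7.

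**Figure D4:**
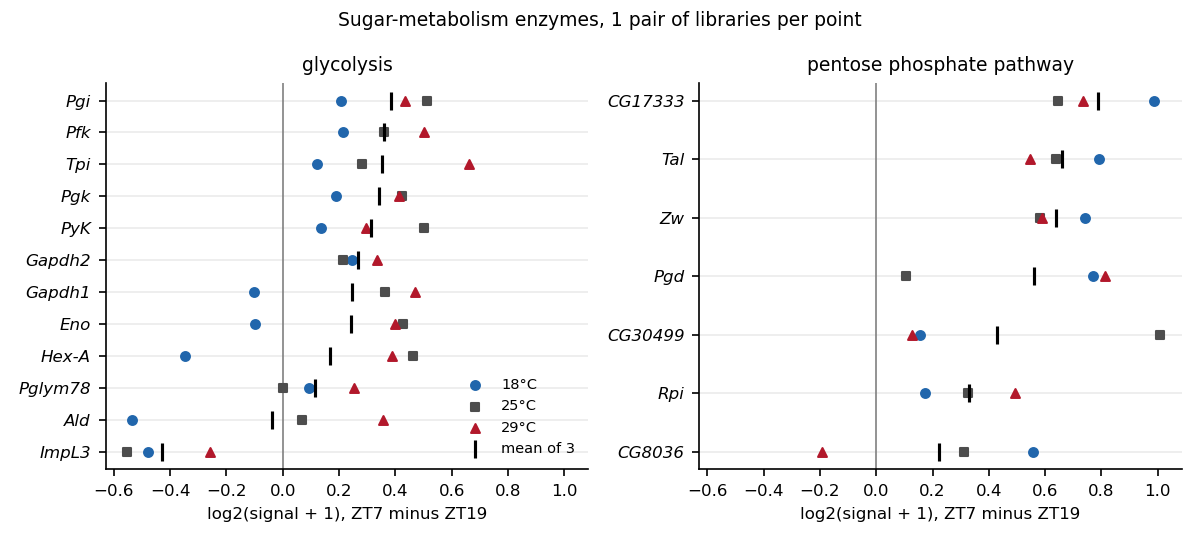
Log2 difference ZT7 minus ZT19 (horizontal axes) for the 12 glycolysis genes and the 7 genes of the pentose phosphate pathway, 1 point per temperature and the mean of 3 as a black bar. The 6 uppermost glycolysis genes and all pentose phosphate genes except *CG8036* lie to the right of 0 at every temperature.

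The remaining transcripts higher at ZT7 in the paired fit included further enzymes. *Got1* and *Got2* encode the cytosolic and the mitochondrial aspartate aminotransferase, with differences of 0.62 ± 0.15 and 0.55 ± 0.14. *Got2* read 3257, 2561 and 2153 at ZT7 and 2401, 1767 and 1342 at ZT19. *ATPCL* (ATP citrate lyase, which supplies acetyl-CoA for fatty acid synthesis) read 959, 775 and 599 against 670, 362 and 464, and *ACC* (acetyl-CoA carboxylase, the next step) read 1058, 787 and 716 against 1016, 522 and 544. The differences were 0.66 ± 0.20 and 0.35 ± 0.17, and *ACC* was not called in either fit. The folate enzyme gene *pug* read 2012, 1615 and 1134 against 1308, 854 and 784, a difference of 0.69 ± 0.18. *Sodh-1* (sorbitol dehydrogenase) and *CG6084* (now *Akr1B*, an aldose reductase) differed by 0.56 ± 0.20 and 0.56 ± 0.19, and *CG11796* (now *Hpd*, of tyrosine breakdown) by 0.63 ± 0.16. For all of these the light-phase difference in the other libraries was between 0.04 and 0.18. *CG7322*, *CG9914* (now *Had1*), *CG12116* and *CG42846* completed the group, with 0.64 to 1.22.

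Of the 19 transcripts higher at midday in the paired fit, 15 had their highest mean of the 6 times at ZT7, 3 at ZT3 and 1 at ZT23. Of the 11 that were lower, 6 peaked at ZT19, 4 at ZT23 and 1 at ZT15. The rows were chosen by their values at ZT7 and ZT19, which favours a peak at these times. Of all tested rows, 32.1% of those with a difference above 0 had their highest mean at ZT7, and 30.4% of those below 0 at ZT19.

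No core clock RNA passed the test between ZT7 and ZT19 with the 3 temperatures in 1 test. None of the 10 tested rows of 8 genes passed, 1 (*cry*) was higher at an unadjusted p under 0.05, and 1 row each was higher or lower at all 3 temperatures. Among all 8859 tested rows, 3.12% were higher and 2.49% lower at that p. At all 3 temperatures, 1246 of them were higher and 1098 lower. For *tim* and *vri* the order of the 2 times was not the same at every temperature, and the test counts such a change as spread. The *tim* row that ends at the distal 3′ end, shared by the *tim-L*, *tim-M* and *tim-cold* isoforms (2L, dm3, 3493986 to 3508119), read 279 at ZT7 and 141 at ZT19 at 18°C. At 25°C it read 147 and 406 and at 29°C 185 and 392. Thus midday was 1.98-fold above midnight in the cold, and midnight was 2.75-fold and 2.12-fold above midday at the warmer temperatures. The test of this dependence on temperature gave a change of -0.21 ± 0.07 in the log2 difference per degree (limma, unadjusted p = 0.00941, adjusted p = 0.793). Over all rows, 0 of 8859 passed that test (limma, lowest adjusted p = 0.583, 483 rows at an unadjusted p under 0.05).

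*vri*, which encodes the bZIP repressor of *Clk*, had the same order: 199 at ZT7 and 94.5 at ZT19 at 18°C, 90.7 and 177 at 25°C, and 139 and 208 at 29°C. Its change per degree was -0.17 ± 0.07 (limma, unadjusted p = 0.0314, adjusted p = 0.88). *per*, the partner of *tim*, read 103 at ZT7 and 32.4 at ZT19 at 18°C, and was about even in the warmth, with 41.5 and 40.1 at 25°C and 28.08 and 36.2 at 29°C (-0.19 ± 0.09 per degree; limma, unadjusted p = 0.0567, adjusted p = 0.907). So at 18°C all 3 of these RNAs were more abundant at midday, at 25°C and 29°C *tim* and *vri* were more abundant at midnight. Over the 3 temperatures, the mean level of *tim*, *per* and *vri* was highest at ZT15, as it was at 25°C and at 29°C for each of them. In 2 of these cases ZT11 was practically level with ZT15: *tim* at 29°C (434.6 against 435.8) and *vri* at 25°C (230.4 against 233.0). At 18°C *tim* was highest at ZT15 (432), whereas *per* was highest at ZT7 (103, against 50.1 at ZT15) and *vri* at ZT11 (213, against 183). The *per* transcript ends within *CG2650*, its neighbour on the opposite strand, with which it shares 49 bases at the 3′ end, and whether reads were counted by strand is not given in the sources used here. *CG2650* itself read 12.9, 86.5 and 85.2 at ZT7 and 18.5, 31.8 and 40.7 at ZT19.

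**Figure D5:**
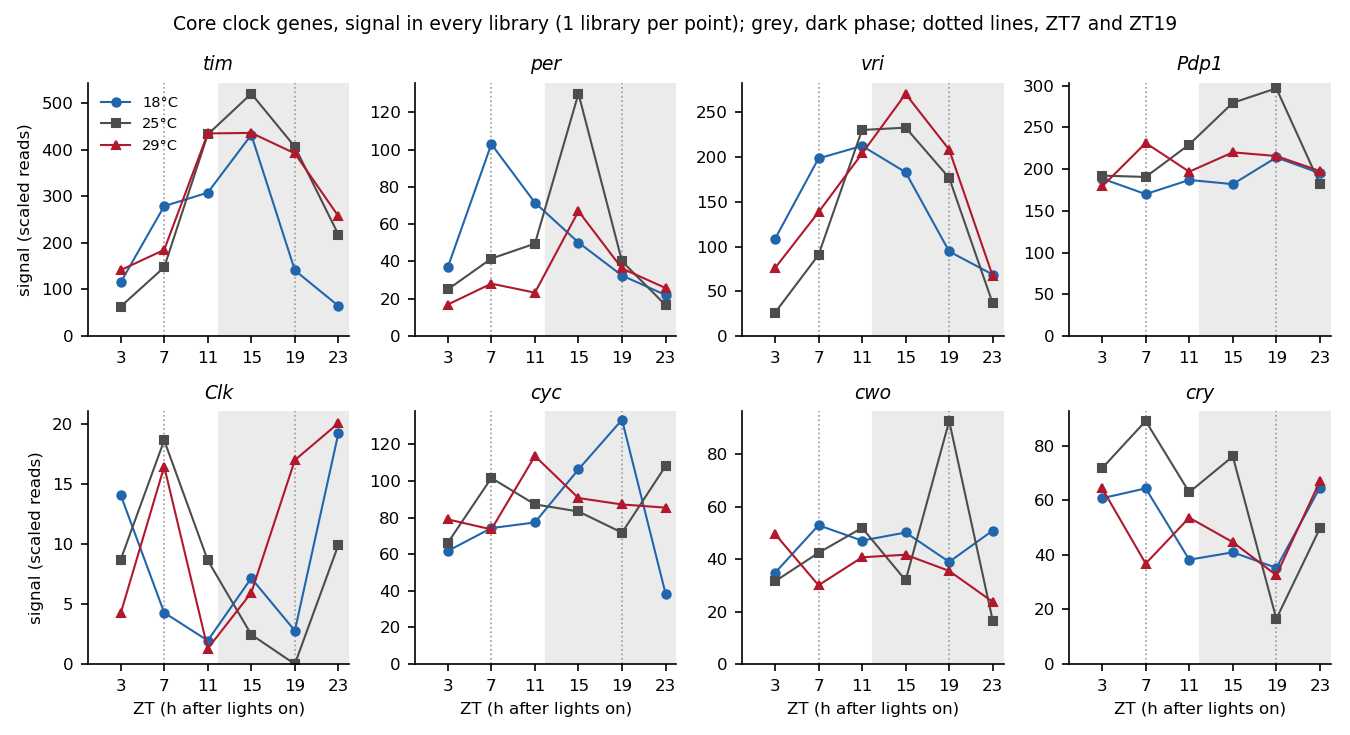
Signal of the 8 core clock genes (vertical axes, scaled reads) against time of day (horizontal axes, h after lights on) in the 18 libraries, with 1 line per temperature, the dark phase in grey and dotted lines at ZT7 and ZT19; *tim* is the distal end and *Pdp1* the first of 2 rows. At ZT7 the 18°C library was the highest of the 3 for *tim* (279), *per* (103) and *vri* (199), and at ZT19 the lowest for *tim* (141), *per* (32.4) and *vri* (94.5).

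The short isoform *tim-sc*, which ends at a proximal site, read 34.3, 5.09 and 0 at ZT7 and 41.7, 12.4 and 1.48 at ZT19. It took 10.96% of the 2 *tim* ends at ZT7 and 22.8% at ZT19 at 18°C, and 3.33% and 2.97% at 25°C. At both times it was highest at 18°C and lowest at 29°C, and the difference between the times (-0.91 ± 0.97) was within 1 standard error. In the test of transcript end use between ZT7 and ZT19, 0 of 495 genes with at least 2 tested rows passed (limma diffSplice, lowest adjusted p = 0.509, 19 at an unadjusted p under 0.05), and in 48 of these genes 2 rows share their last base, so that reads could have been split between them.

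*cry*, the blue-light photoreceptor that binds TIM, was the only clock gene whose groups did not overlap. It read 64.3, 89.0 and 36.8 at ZT7 and 35.2, 16.6 and 32.5 at ZT19. All midday values were above all midnight values, though at 29°C by a narrow margin. Of all tested rows, 3.74% had every midday value above every midnight value, and 3.96% had the reverse. The difference for *cry* was 1.13 ± 0.36 (limma, unadjusted p = 0.0049, adjusted p = 0.61). In the libraries of the other times, its light phase differed from its dark phase by only 0.04 ± 0.22, less than the standard error. *Clk* read 4.29, 18.6 and 16.5 against 2.78, 0 and 17.0. Of these, 2 of the 3 midnight values and the 18°C midday value were at or under the limit of detection. The remaining genes overlapped: *cyc*, the partner of *Clk*, read 74.3, 102 and 73.6 against 134, 71.8 and 87.2, *cwo*, a repressor at E-boxes, 52.9, 42.4 and 30.0 against 38.9, 92.6 and 35.5, and the 2 rows of *Pdp1* differed by -0.29 ± 0.18 and -0.45 ± 0.25. Among 27 tested rows of clock kinases, phosphatases and ligases, none had an unadjusted p under 0.05, and 3 were higher and 7 lower at all 3 temperatures. The counts over all 8859 rows were 1246 higher and 1098 lower.

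Of the genes known as rhythmic outputs in heads, 15 rows were tested, with 2 higher (*Pdh* and *Cpr72Ec*) and 2 lower (*Cyp4d21* and *Cyp18a1*) at an unadjusted p under 0.05 and a median of -0.04. Over all rows, 3.12% were higher and 2.49% lower at that p. *Cyp4d21*, a cytochrome P450 also known as sex-specific enzyme 1, read 48.6, 55.9 and 81.3 at ZT7 and 108, 108 and 152 at ZT19, with no overlap and the midnight library the higher one at every temperature (-0.99 ± 0.25; limma, unadjusted p = 0.000507, adjusted p = 0.245). The light phase of the other 12 libraries was also lower (-0.75 ± 0.19). *Cyp18a1*, which encodes an ecdysteroid hydroxylase, read 47.2, 32.2 and 68.7 against 92.7, 113 and 97.6, also without overlap (-1.08 ± 0.34; limma, adjusted p = 0.594), but its light phase elsewhere differed by -0.12 ± 0.24. The feeding regulator *takeout* (*to*) read 44.3, 33.9 and 13.6 against 67.7, 35.9 and 34.0 (-0.65 ± 0.49).

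The remaining lists held few rows past an unadjusted p of 0.05. In the redox list, 3 of 12 rows (*Zw*, *Pgd* and *cnc*, the fly NRF2 homologue) were higher at an unadjusted p under 0.05, and 7 were higher and 0 lower at all 3 temperatures, with a median of 0.17. *Zw* and *Pgd* are also among the pentose phosphate genes above. Over all 8859 rows, 3.12% were higher at that p, and 1246 were higher and 1098 lower at all 3 temperatures. *cnc* read 323, 330 and 340 at ZT7 and 302, 231 and 237 at ZT19, without overlap (0.38 ± 0.18; limma, adjusted p = 0.887). Of 33 rows listed as proteasome by gene name, 8 were higher and 0 lower at all 3 temperatures and the median was 0.13, although only *Prosbeta4* had an unadjusted p under 0.05. The 33 rows and the median include *Prosap*, which is not a proteasome subunit and is in neither count. *Dat*, whose product acetylates dopamine and serotonin, read 480, 623 and 732 against 386, 441 and 496 (0.46 ± 0.17; limma, adjusted p = 0.776). No row of the 85 ribosomal protein, 18 neuropeptide or 20 protein folding rows had an unadjusted p under 0.05, and their medians were 0.03, -0.02 and -0.05. None of the marker lists of photoreceptors, neurons, glia, fat body or hemocytes had a row at an unadjusted p under 0.05.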

How the data were processed

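The authors deposited 1 table with a value per annotated transcript and library, here called signal. It holds read numbers divided by 1 constant per library, since 97.9% to 98.5% of the values above 0 were whole multiples of 1 step. The rest were fractions, so no count test was run. Per the labels, Bowtie2, TopHat and Cufflinks and the dm3 build were used, and versions are not given in the sources used here. Of 29561 rows, 667 had no values. Identical rows of a gene, and rows within 10% of each other, were merged, which left 16515 rows, 13856 of them above 0.

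Rows reaching 10 in at least 6 of 18 libraries were tested with limma 3.58.1 (R 4.3.3) on log2(signal + 1), which understates differences of scarce transcripts. Terms were time and temperature, with an intensity trend and Benjamini-Hochberg adjustment at 0.05. The scripts were tested on simulated data. The temperature label pairs the libraries. An exact test on 3 pairs cannot give a p below 0.25. The labels do not say whether libraries came from separate cultures, so p-values measure the spread between these libraries. In the test of ZT7 against ZT19, a time difference that changes with temperature is counted as part of this spread. Limits of detection (3 reads) cover counting error only.

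The gene lists, the comparison and its tests were chosen with earlier results of these data known. The rule named called rows with 1 direction at all 3 temperatures, up to 15 each way, the 8 core clock genes, and list members past the threshold. All other genes were named after their values were seen. Newer gene names are from the RefSeq table of Release 6, whose positions were not used.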

Additional observations from a re-analysis of the deposited data

How the results depend on the processing

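The number of rows called between ZT7 and ZT19 (1) was 0 with library-size scaling, 0 with a pseudocount of 0.25, 2 with a pseudocount of 5, 0 without both libraries of 25°C and 0 without both of 29°C, and 0 to 1 when each of the 6 libraries was left out in turn. It was 0 with no replicate block (no temperature term), over 18 or 6 libraries, and 30 in the 6 libraries with the temperature as replicate block. In that paired fit it was 44 without both libraries of 18°C, 15 without those of 25°C and 29 without those of 29°C. The count for dependence on temperature (0) was 1 with a pseudocount of 5, 2 with no filter and 24 in the 6 libraries with the replicate block, which leaves 1 residual degree of freedom. For the light and dark phases of the 12 other libraries (0) it was 17 without the 25°C library of ZT15, the shallowest library (1.25 M reads), and 0 to 17 over single libraries left out. For transcript end use it was 0 throughout. The cause was not tested. A count test (edgeR) was planned for whole reads and was not run. The 6-library fits without a block, and those without 1 temperature, were added after the data were seen.

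Of 1420 repeats of the 62 single differences, 14 changed sign, in 4 clock genes. Without both libraries of 18°C, *cyc* was 0.13 and *per* -0.15, without both of 25°C *cwo* was 0.10 and *vri* 0.24, and without both of 29°C *vri* was 0.054, in the 18-library and the paired fit alike. With single libraries left out, *cyc* ranged from -0.45 to 0.18, *per* from -0.021 to 0.71, *cwo* from -0.63 to 0.23 and *vri* from -0.64 to 0.17. With 1 library per time and temperature, differences confined to 1 temperature have no replicate.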
